A study of Homo sapiens with 8 samples.

Results

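The 10 genes described here encode enzymes of mitochondrial fatty acid beta-oxidation, namely CPT1A, CPT2, ACADM, ACADVL, ACADS, HADHA, HADHB, HADH, ECHS1 and ETFDH. They were chosen by symbol and matched to Ensembl IDs, and they are 10 of the 38010 gene IDs in the deposited table of estimated counts. All 10 passed the filter on low counts, as did 15184 genes in all. Gene expression was measured by bulk RNA-seq in confluent cultures of Ea.hy926, an immortal hybrid obtained by fusion of umbilical vein endothelium with the A549 lung carcinoma line. The Rho0 derivative of Ea.hy926 (4 biological replicates), labelled as deficient in oxidative phosphorylation (OXPHOS), was compared with parental Ea.hy926 (4 biological replicates). No drug or other treatment is named for either line. Each line is 1 cell population, so what separates Rho0 from parental cells for other reasons cannot be told apart from the loss of respiration. The labels do not say whether the Rho0 line was grown from a single clone.

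Fatty acids enter the mitochondrion as carnitine esters and are then shortened in repeated rounds of dehydrogenation, hydration, a further dehydrogenation and thiolysis, each round releasing acetyl-CoA. Electrons from the acyl-CoA dehydrogenases pass through the electron transfer flavoprotein and its dehydrogenase to ubiquinone, and NADH from the later step is oxidised by complex I, so the pathway depends on a working respiratory chain. Endothelial cells are known to use CPT1A-dependent oxidation to support nucleotide synthesis and redox balance more than to make ATP.

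The Rho0 libraries held 11721708 to 37203507 estimated counts and the parental libraries 23366190 to 28599386. Protein-coding mRNAs of mitochondrial DNA made up 0.00296% to 0.149% of the Rho0 libraries and 16.05% to 21.4% of the parental libraries (p = 0.0286 by a two-sided exact permutation test, whose 70 arrangements allow no smaller value). Rho0 replicate 2, also the shallowest library, was the one at 0.149%. The endothelial genes PECAM1, CDH5, VWF and KDR were expressed in both lines, at 2116 ± 67.2, 1033 ± 32.7, 228 ± 19.3 and 130.4 ± 13.5 CPM (counts relative to the TMM-scaled library total) in Rho0 cells, against 1085 ± 41.4, 1716 ± 92.4, 165 ± 4.22 and 13.8 ± 0.793 CPM in parental cells (SD, n = 4 each). The tight junction gene CLDN5 was near absent, at 0.147 ± 0.105 CPM in Rho0 cells and 0.496 ± 0.118 CPM in parental cells. Markers of epithelium, the origin of A549, summed to 1294 to 2077 CPM in Rho0 libraries and 2605 to 2877 CPM in parental libraries. Nearly all of it came from KRT7, KRT8 and KRT18. By the test given below, KRT8 and KRT18 were lower in Rho0 cells (log2 fold change -1.21 and -0.89). EPCAM was higher (1.13), and KRT7 and CDH1 were not called (-0.14 and 0.29). Fibroblast markers summed to 1.54 to 2.32 CPM in Rho0 libraries and 19.4 to 22.8 CPM in parental libraries. Among them THY1 and PDGFRB were lower (-8.61 and -0.78), DCN was higher (1.22) and COL1A1 was not called (-0.67). THY1 was near absent in Rho0 cells and passed the filter on low counts only through the parental line, so its call is no support. PDGFRB, DCN and COL1A1 were also low in Rho0 cells, within the sum of at most 2.32 CPM. The call of PDGFRB held in 9 of 19 alternative settings. KRT19, PDGFRA, LUM and COL1A2 were too low to test. The part of these markers in the results was not tested. Leukocyte markers summed to 0.903 to 1.28 CPM in Rho0 libraries and 0.688 to 0.979 CPM in parental libraries.

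Of the 10 genes, 3 were lower in Rho0 cells (HADH, CPT2 and ECHS1), 1 was higher (CPT1A) and 6 were not called (quasi-likelihood test of edgeR, with calls at 0.05 after Benjamini-Hochberg adjustment over every gene tested). Among all genes tested 54.4% were called, 25.4% as lower and 29% as higher, so the share of the enzymes called, 40%, lay near or below that of the transcriptome. In the same 4 genes the CPM ranges of the lines did not overlap, against 50.9% of all genes tested (24.3% with every Rho0 library lower, 26.6% with every one higher). The median log2 fold change (Rho0 over parental) was -0.10 over the 10 genes and 0.05 over all genes. The counts are of RNA from whole cultures, in which fewer expressing cells and less RNA per cell cannot be told apart.

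**Figure D1:**
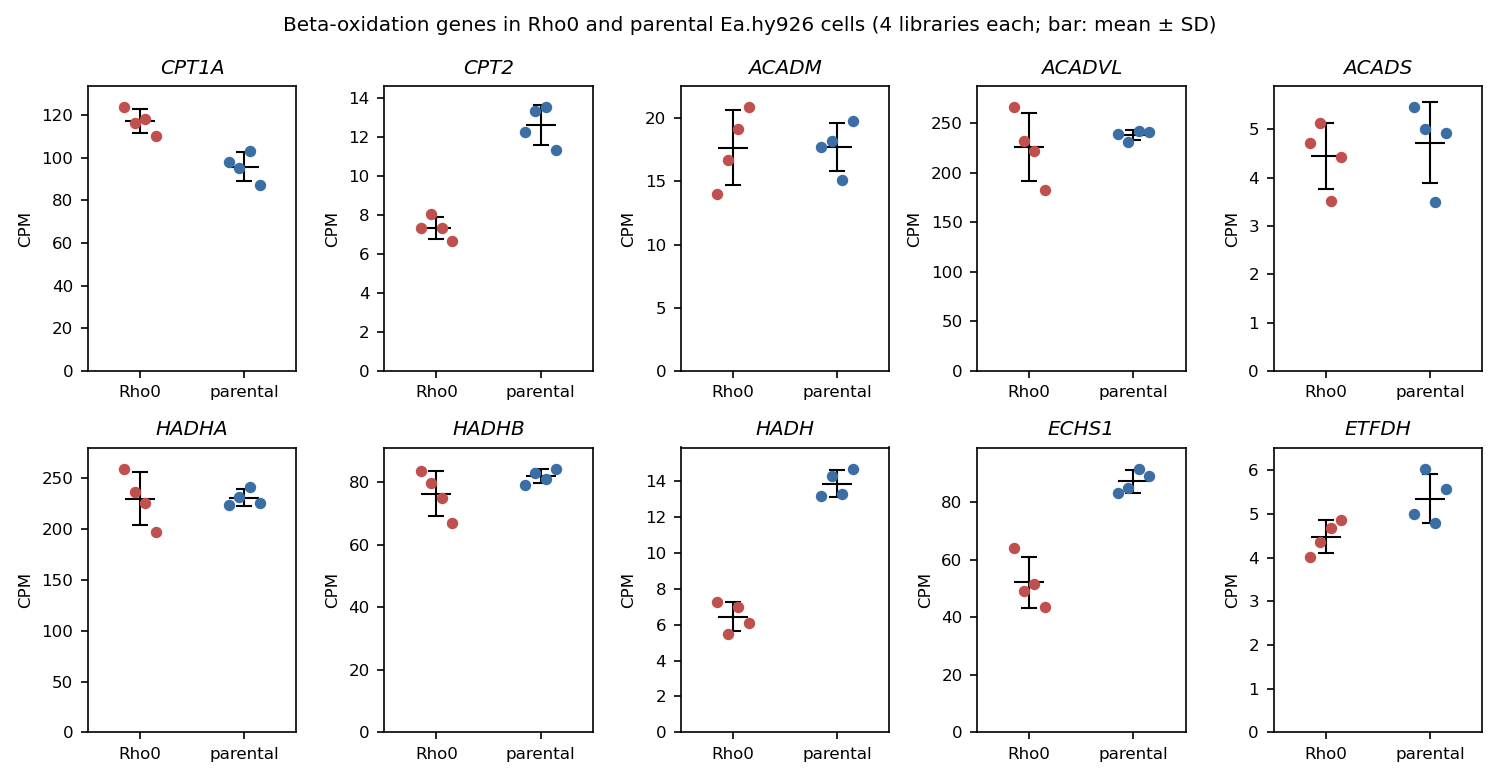
Level of each of the 10 genes in CPM (vertical axes, each from 0) in the 4 Rho0 and the 4 parental libraries. Points are libraries and bars are the mean ± SD. The lines do not overlap in CPT1A, CPT2, HADH and ECHS1 and overlap in the other genes.

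The promoters of the genes that frame these results are printed from RefSeq (GRCh38.p14, 250 bases before to 50 after the annotated start), which held a window for 9 of the 10 genes. Where a gene had more than 1 window, that of the most upstream start was taken, and other starts were not examined. HADHA and HADHB are shown because they are transcribed away from each other, with starts 307 bases apart, so that their windows share 194 bases. HADH is shown as the gene with the largest difference and CPT1A as the gene that was higher in Rho0 cells. Capitals mark the GC box GGGCGG (on either strand) and the CCAAT box (on either strand).
HADHA (chr2:26244583-26244882, minus strand): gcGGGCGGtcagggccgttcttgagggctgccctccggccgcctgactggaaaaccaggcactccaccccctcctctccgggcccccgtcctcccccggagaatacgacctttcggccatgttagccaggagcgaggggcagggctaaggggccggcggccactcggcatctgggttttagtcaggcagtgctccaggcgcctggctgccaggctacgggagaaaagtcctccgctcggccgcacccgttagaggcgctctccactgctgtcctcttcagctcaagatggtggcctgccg
HADHB (chr2:26244689-26244988, plus strand): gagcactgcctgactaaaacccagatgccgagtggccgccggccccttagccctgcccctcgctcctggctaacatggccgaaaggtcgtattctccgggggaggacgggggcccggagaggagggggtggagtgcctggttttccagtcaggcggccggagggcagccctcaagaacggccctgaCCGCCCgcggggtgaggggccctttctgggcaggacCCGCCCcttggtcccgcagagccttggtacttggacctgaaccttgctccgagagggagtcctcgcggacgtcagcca
HADH (chr4:107989639-107989938, plus strand): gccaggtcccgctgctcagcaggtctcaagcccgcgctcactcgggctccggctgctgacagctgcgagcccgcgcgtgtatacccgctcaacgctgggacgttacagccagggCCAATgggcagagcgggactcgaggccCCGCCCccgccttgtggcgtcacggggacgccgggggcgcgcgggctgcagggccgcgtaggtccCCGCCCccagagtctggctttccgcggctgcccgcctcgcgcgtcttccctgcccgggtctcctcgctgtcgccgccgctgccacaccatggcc
CPT1A (chr11:68844228-68844527, minus strand): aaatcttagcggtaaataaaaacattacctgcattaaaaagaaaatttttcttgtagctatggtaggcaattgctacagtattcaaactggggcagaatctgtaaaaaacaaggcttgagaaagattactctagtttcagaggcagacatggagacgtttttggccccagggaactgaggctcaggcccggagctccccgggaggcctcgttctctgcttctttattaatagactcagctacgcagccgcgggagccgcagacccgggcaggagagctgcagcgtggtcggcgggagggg
The GC box occurred in 7 of the 9 windows, those of CPT2, ACADM, ACADS, HADHA, HADHB, HADH and ECHS1, and in 44.95% of all 35116 RefSeq windows of that length. Neighbouring GC boxes overlapped by 1 base in the ACADM window. The box of the HADHA window and the first box of the HADHB window are the same site, within their shared bases, so it is counted in both. The box was present both in genes that were lower in Rho0 cells and in genes that were not called. CCAAT occurred in the HADH window alone and in 34.6% of all windows. The nuclear receptor hexamer AGGTCA (either strand), part of the elements bound by PPAR and estrogen-related receptors, was in none of the 9 windows and in 13.8% of all, and CACGTG in none and in 7.26%. The shares of all windows were not limited to the most upstream window of each gene, as those of the 9 were. The ETFDH promoter is not shown.

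Of the carnitine palmitoyltransferases among the 10 genes, CPT1A was higher and CPT2 lower in Rho0 cells. CPT1A (chromosome 11, 68754620 to 68844410; GRCh38, GENCODE 29), the malonyl-CoA-sensitive palmitoyltransferase of the outer membrane that forms acylcarnitines, had 124, 116, 118 and 110.0 CPM in Rho0 replicates 1 to 4, against 98.1, 94.99, 103 and 87.1 CPM in parental replicates 1 to 4. Every Rho0 library lay above every parental one, and the gene was higher in Rho0 cells by a modest 1.22-fold (log2 fold change 0.29, SE 0.07, edgeR adjusted p = 0.0062). CPT2 (chromosome 1, 53196429 to 53214197), the inner-membrane enzyme that turns acylcarnitines back into acyl-CoA in the matrix, had 7.32, 8.06, 7.33 and 6.69 CPM in Rho0 libraries, against 12.3, 13.3, 13.5 and 11.3 CPM in parental libraries. Every Rho0 library lay below every parental one, and the gene was 1.73-fold lower in Rho0 cells (log2 fold change -0.79, SE 0.10, edgeR adjusted p = 6.5e-05).

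None of the 3 acyl-CoA dehydrogenases, which open each round on chains of different length, was called. ACADVL (chromosome 17, 7217125 to 7225273), the very-long-chain enzyme bound to the inner membrane, had 266, 232, 222 and 183 CPM in Rho0 libraries, against 239, 231, 242 and 241 CPM in parental libraries. Rho0 replicate 1 was the highest of the 8 and Rho0 replicate 4 the lowest, so the parental range lay inside that of Rho0 (log2 fold change -0.08, 95% interval -0.30 to 0.15). DLG4, which overlaps the annotated span of ACADVL by 2717 bases on the opposite strand, was higher in Rho0 cells (79.5 CPM, against 50.3 CPM in parental cells).

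ACADM (chromosome 1, 75724347 to 75787575), the medium-chain enzyme, had 13.99, 16.7, 19.1 and 20.9 CPM in Rho0 libraries, against 17.7, 18.2, 15.1 and 19.7 CPM in parental libraries. The means were alike at 17.7 ± 2.99 and 17.7 ± 1.91 CPM (SD, n = 4 each), with a 95% interval of the log2 fold change from -0.29 to 0.29. ACADS (chromosome 12, 120725735 to 120740008), the short-chain enzyme, had 4.71, 5.12, 3.51 and 4.41 CPM in Rho0 libraries, against 5.46, 5.01, 3.50 and 4.93 CPM in parental libraries. It rested on 68 to 196 counts per library, and its interval, -0.46 to 0.26, was the widest of the 10. Neither gene separated the lines. RABGGTB, on the same strand as ACADM and overlapping its annotated end by 1379 bases, was lower in Rho0 cells (38.0 CPM, against 50.6 CPM in parental cells).

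The trifunctional protein, an inner-membrane complex that carries out the later steps on long chains, is made of the products of HADHA (hydratase and dehydrogenase activities) and HADHB (thiolase activity). HADHA (chromosome 2, 26190635 to 26244726) had 259, 237, 226 and 197 CPM in Rho0 libraries, against 224, 232, 242 and 226 CPM in parental libraries. HADHB (chromosome 2, 26243170 to 26290468) had 83.8, 79.8, 75.1 and 67.0 CPM in Rho0 libraries, against 79.2, 83.2, 81.2 and 84.4 CPM in parental libraries. In both genes the lines overlapped, and in Rho0 cells replicate 1 was highest and replicate 4 lowest. The 95% intervals of the log2 fold changes ran from -0.20 to 0.18 for HADHA and from -0.28 to 0.07 for HADHB.

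HADHA had more counts than HADHB in every library, and their proportion was not compared with that of other gene pairs. HADHA counts divided by HADHB counts came to 3.09, 2.96, 3.01 and 2.94 in Rho0 replicates 1 to 4, against 2.83, 2.79, 2.98 and 2.67 in parental replicates 1 to 4. The ranges overlapped by a narrow margin, with means of 3.002 ± 0.0678 in Rho0 cells and 2.82 ± 0.126 in parental cells (SD, n = 4 each; not divided by transcript length, and not tested). Their annotated spans overlap by 1557 bases on opposite strands, and no label states whether the counting used the strand. The processed pseudogenes HADHAP1 and HADHAP2 held 2 and 4 counts in the Rho0 libraries together, against 0 and 3 in the parental libraries.

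The matrix enzymes ECHS1 and HADH were lower in Rho0 cells. ECHS1 (chromosome 10, 133362480 to 133373689), the short-chain enoyl-CoA hydratase, which also serves valine breakdown, had 64.3, 49.0, 51.5 and 43.8 CPM in Rho0 libraries, against 83.3, 84.9, 91.7 and 89.0 CPM in parental libraries. All Rho0 libraries lay below all parental ones, with a 1.67-fold lower level (log2 fold change -0.74, SE 0.11, edgeR adjusted p = 2.0e-04). HADH (chromosome 4, 107989714 to 108035175), the 3-hydroxyacyl-CoA dehydrogenase of medium and short chains, had 7.23, 5.50, 6.98 and 6.08 CPM in Rho0 libraries, against 13.2, 14.3, 13.3 and 14.7 CPM in parental libraries. It had the largest difference of the 10, 2.13-fold lower in Rho0 cells (log2 fold change -1.09, SE 0.11, edgeR adjusted p = 9.9e-06).

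Over the 8 libraries, the genes whose log2 CPM followed that of HADH most closely were NDUFA8, HSBP1 and CCT5 (Pearson's r = 0.9971, 0.9966 and 0.9965). The 8 points of each correlation share the split between the lines, so it is given as a description. NDUFA8, a complex I subunit, had 16.8 CPM in Rho0 cells and 33.7 CPM in parental cells.

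ETFDH (chromosome 4, 158672125 to 158709623), the electron transfer flavoprotein dehydrogenase that hands the electrons to ubiquinone, had 4.01, 4.37, 4.67 and 4.86 CPM in Rho0 libraries, against 4.998, 6.04, 4.79 and 5.58 CPM in parental libraries. Rho0 replicate 4 overlapped the lowest parental library, and the gene was not called (log2 fold change -0.26, SE 0.12, 95% interval -0.53 to 0.01, edgeR adjusted p = 0.096). It rested on 58 to 216 counts per library. Its annotated ends overlap C4orf46 and PPID on the opposite strand, by 131 and 490 bases, and both of these were lower in Rho0 cells.

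**Figure D2:**
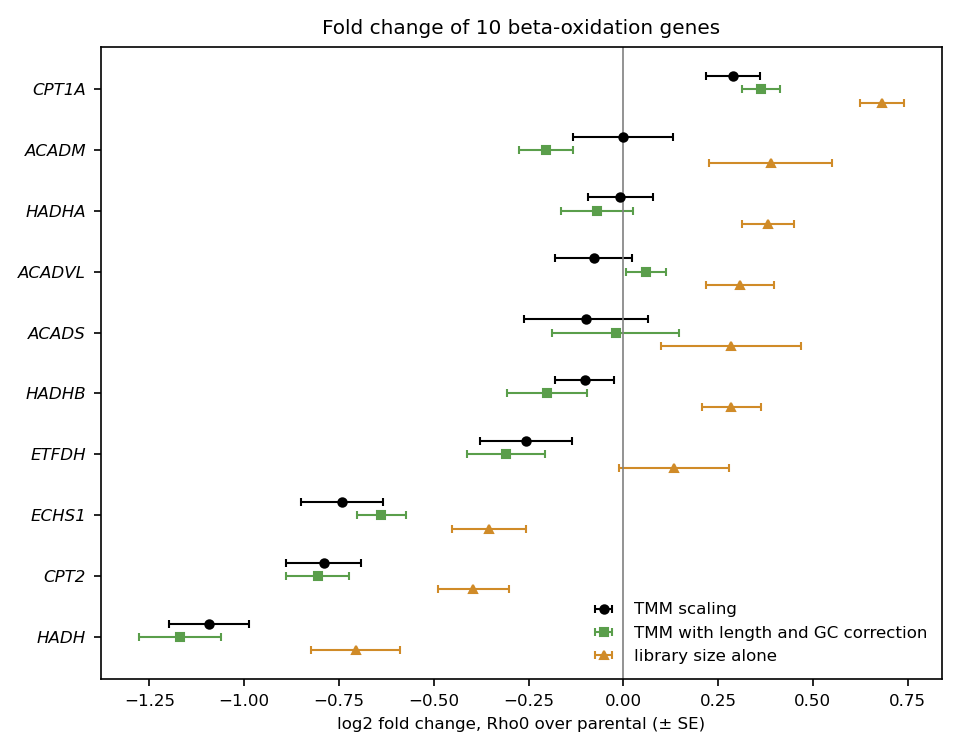
Log2 fold change (Rho0 over parental, horizontal axis) of the 10 genes with its SE, under TMM scaling, TMM with a length and GC correction, and scaling by library size alone. HADH, CPT2 and ECHS1 lie below 0 and CPT1A above 0 under all 3.

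The scaling of the libraries moved all 10 values together, and the 4 called genes kept their direction. When only library size was used for scaling, the transcriptome-wide median shifted by 0.39 (log2), and CPT1A, ACADVL, HADHA and HADHB were called higher in Rho0 cells (0.68, 0.31, 0.38 and 0.29), while HADH, CPT2 and ECHS1 were still called lower (-0.71, -0.40 and -0.35). Relative to the median of all genes, the median of the 10 was then -0.16, against -0.15 with TMM. The summed level of the 10 genes also turned with the scaling. It was 742 ± 78.5 CPM in Rho0 cells and 788 ± 14.98 CPM in parental cells with TMM, and 848 ± 64.4 and 689 ± 29.8 CPM with library size alone (SD, n = 4 each, no test).

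With length and GC content of transcripts corrected for per library, 5 genes were lower in Rho0 cells instead of 3. Among all 15184 genes tested, 4601 were then lower and 4616 higher, against 3858 and 4399 with TMM alone. ACADM was then called at a log2 fold change of -0.20 (SE 0.07, edgeR adjusted p = 0.029) and ETFDH at -0.31 (SE 0.10, edgeR adjusted p = 0.021), while CPT1A remained the gene that was higher. The calls of CPT1A, CPT2, HADH and ECHS1 held in all 19 alternatives, including each left-out library.

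**Figure D3:**
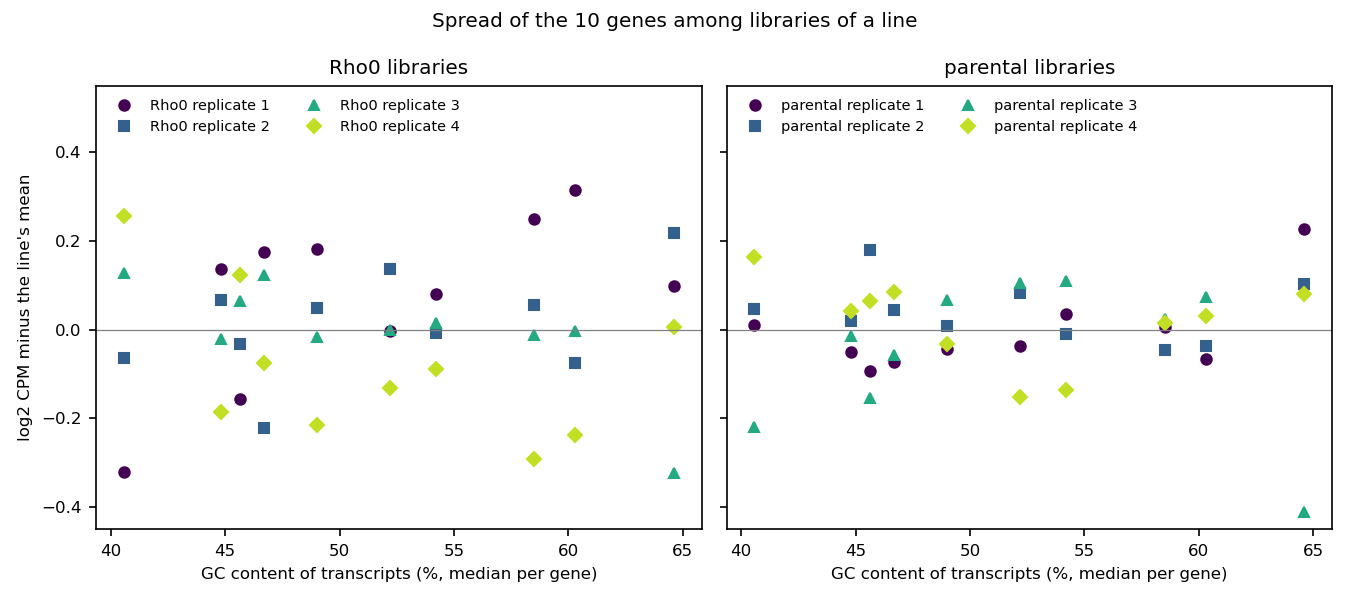
Log2 CPM of the 10 genes in each library minus the mean of its line (vertical axis), against the median GC content of each gene's transcripts in percent (horizontal axis), for Rho0 (left) and parental libraries (right). In Rho0 cells, replicate 4 is the highest library for ACADM and ETFDH and the lowest for ACADVL, ECHS1, HADHA, HADHB, CPT1A and CPT2.

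Spread among cultures differed between the genes and the lines. The coefficient of variation over 4 libraries had a median of 11.9% in Rho0 cells and 6.20% in parental cells, and 6 of the 10 genes varied more in Rho0. ACADVL was the clearest case, at 15.2% in Rho0 cells and 2.19% in parental cells. In 5 genes (CPT1A, ACADVL, HADHA, HADHB and ECHS1) Rho0 replicate 1 was the highest and replicate 4 the lowest, and in ACADM and ETFDH the order was the other way round. The transcripts of these 5 genes had a GC content of 44.8% to 60.3%, and those of ACADM and ETFDH 40.6% and 45.6%. Spread and order were not counted over all genes tested, so neither is shown to be particular to the 10. Over all genes tested, deviations from the line's mean correlated at -0.55 between Rho0 replicates 1 and 4, the lowest value within a line. With the length and GC correction the SE of the log2 fold change was smaller for 6 genes and larger for 4 (HADHA, HADHB, HADH and ACADS). It was 0.05 for ACADVL, against 0.10 without the correction, and 0.11 for HADHB, against 0.08.

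Per length of transcript (CPM per kilobase of the median GENCODE transcript), ACADVL stood at the top of the 10 genes and CPT2 and ACADS near the bottom. ACADVL was at 314 ± 47.9 CPM per kilobase in Rho0 cells and 332 ± 7.28 in parental cells, followed by CPT1A at 189.9 ± 9.16 and 155 ± 10.9 and HADHA at 85.5 ± 9.63 and 85.9 ± 2.99 (SD, n = 4 each). HADHB and ECHS1 came next in Rho0 cells, at 48.1 ± 4.55 and 32.2 ± 5.38 CPM per kilobase. In parental cells these neighbours, at 51.6 ± 1.45 and 53.9 ± 2.37, did not differ beyond their spread.

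ACADM lay in between, at 17.1 ± 2.90 CPM per kilobase in Rho0 cells and 17.2 ± 1.85 in parental cells. ETFDH, HADH, ACADS and CPT2 formed the low end, with 2.73 to 5.49 CPM per kilobase in Rho0 cells and 3.38 to 7.81 in parental cells, and in Rho0 cells HADH and ACADS, and ACADS and CPT2, did not differ beyond their spread. The place of CPT1A depends on the length used: with the longest transcript it was at 22.4 ± 1.081 CPM per kilobase in Rho0 cells and 18.3 ± 1.29 in parental cells, below ECHS1 and HADHB. The order at the low end depended on it too. With the longest transcript HADH was lowest in Rho0 cells, at 0.986 ± 0.123 CPM per kilobase. ETFDH was then lowest in parental cells, at 1.63 ± 0.173. ACADVL was the highest and HADHA above HADHB with each of the 3 lengths tried.

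The rest of the pathway was read from 10 lists by role. Outside the 10 enzymes they held 80 genes, of which 68 were tested, with 20 higher and 19 lower in Rho0 cells (57.4% called, against 54.4% of all genes). The background of each list's counts is 29% of all genes tested higher and 25.4% lower. With library size alone it is 8572 of 15184 genes higher and 1540 lower. Of the 7 carnitine shuttle genes, 4 were higher and 2 lower. The 4 became 2 with DESeq2 size factors and without Rho0 replicate 1, 2 or 3 or parental replicate 1 or 4. SLC25A20, the inner-membrane carnitine-acylcarnitine carrier, was higher (log2 fold change 0.87), a call that held in 8 of 19 alternatives, and the muscle isoform gene CPT1B was not called (-0.19). These genes, and ACAT1, DECR1 and MCEE further on, were named after their values were seen. CPT1C, the neuronal isoform with little catalytic activity, was at 12.3 ± 1.22 CPM in Rho0 cells and 2.05 ± 0.391 CPM in parental cells (5.96-fold higher; edgeR adjusted p = 1.8e-07). The plasma membrane carnitine carrier gene SLC22A5 was at 4.12 ± 0.176 CPM in Rho0 cells and 8.45 ± 1.13 CPM in parental cells (2.05-fold lower; edgeR adjusted p = 4.0e-05). The carnitine acetyltransferase CRAT was higher (log2 fold change 0.34, edgeR adjusted p = 0.030), a call that held in 12 of 19 alternatives and was lost with DESeq2 size factors.

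Among 12 tested genes of fatty acid uptake and activation, 1 was higher and 3 lower. With library size alone the balance turned to 6 higher and 1 lower, and 3 were higher and 4 lower both with the length and GC correction and without Rho0 replicate 4. FABP4, a lipid-binding protein of adipocytes and capillary endothelium, was at 6.55 ± 0.843 CPM in Rho0 cells and 0.0804 ± 0.0444 CPM in parental cells. Its counts were 250, 74, 144 and 331 in Rho0 libraries, against 3, 1, 1 and 2 in parental libraries, so it passed the filter on low counts only through the line in which it is high, and its call is no support. The acyl-CoA synthetase ACSL5 was at 31.3 ± 1.91 CPM in Rho0 cells and 73.3 ± 2.24 CPM in parental cells (2.35-fold lower), and the fatty acid transport protein gene SLC27A4 was 1.52-fold lower (not called with library size alone, at a log2 fold change of -0.21).

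Acyl-CoA dehydrogenases had 1 of 10 tested genes higher (ACAD10, 1.23-fold) and 2 lower (ACAD9, which also assembles complex I, 1.37-fold, and the lysine-pathway enzyme GCDH, 1.29-fold), the list including the uncalled ACADVL, ACADM and ACADS. With library size alone 6 were higher and 0 lower, and with the length and GC correction 4 were lower. The number higher was 2 with no filter, with 50 counts in 4 libraries and when Rho0 replicate 1 was left out. In the hydratase, dehydrogenase and thiolase steps, 0 of 7 were higher and 4 lower with TMM, and 3 higher (HADHA, HADHB and ACAT1) and 2 lower with library size alone. The 4 were ECHS1 and HADH, with the thiolase ACAA2 (53.0 ± 5.71 CPM in Rho0 cells, 70.6 ± 3.11 CPM in parental cells) and HSD17B10 (19.3 ± 3.56 and 26.6 ± 0.984 CPM). Both subunits of the electron transfer flavoprotein, the partner of ETFDH, were lower. ETFA was at 48.9 ± 2.91 CPM in Rho0 cells and 68.7 ± 2.00 CPM in parental cells (log2 fold change -0.49, edgeR adjusted p = 1.3e-04), and ETFB was at 39.3 ± 6.39 and 51.6 ± 3.67 CPM (-0.39, adjusted p = 0.014). With library size alone, ACAA2, HSD17B10, ETFA, ETFB, ACAD9 and GCDH were not called (log2 fold changes -0.02, -0.08, -0.10, -0.0036, -0.07 and 0.02).

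Auxiliary enzymes of unsaturated and odd-chain acids had 3 of 8 genes higher and 2 lower. The number higher was 6 with library size alone (1 lower), and 1 with the length and GC correction and without Rho0 replicate 4, parental replicate 1 or parental replicate 3. The dienoyl-CoA reductase gene DECR1 was higher (log2 fold change 0.19), a call that held in 5 of 19 alternatives. MCEE, at less than 5 CPM in both lines, was higher too (log2 fold change 1.02), and its call held in 18 of 19. The dienoyl-CoA isomerase gene ECH1 was 1.74-fold lower and the propionyl-CoA carboxylase subunit gene PCCB 1.30-fold lower (not called with library size alone, at 0.02), and the methylmalonyl-CoA mutase gene MMUT was 1.40-fold higher, at 8.34 ± 1.53 CPM in Rho0 cells and 5.97 ± 0.959 CPM in parental cells. The MMUT call was lost with the length and GC correction (log2 fold change 0.16).

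**Figure D4:**
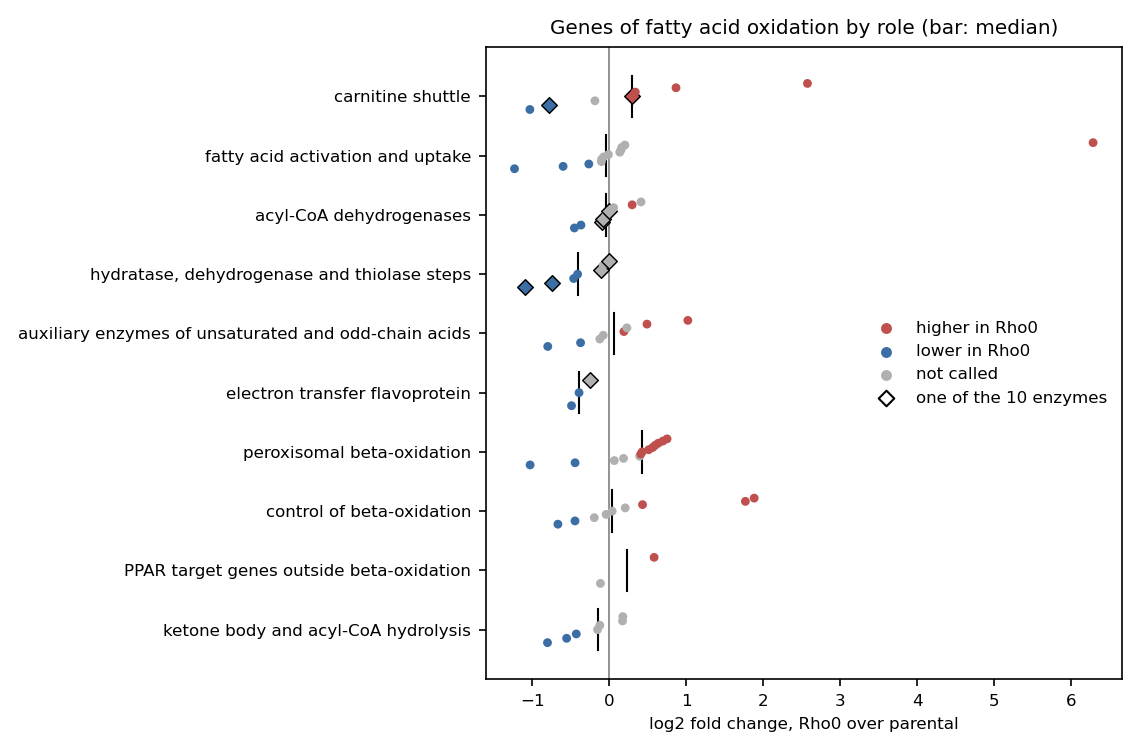
Log2 fold change (Rho0 over parental, horizontal axis) of the tested genes of 10 lists by role, with the median of each list as a bar and the 10 enzymes as diamonds. Most genes of the peroxisomal list lie right of 0 (8 of 13 higher, 2 lower), and the hydratase, dehydrogenase and thiolase list has no gene called higher with TMM scaling (3 with library size alone). Among all genes tested 29% were higher and 25.4% lower with TMM scaling.

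Peroxisomal beta-oxidation, which shortens very-long-chain and branched acids and passes its first electrons to oxygen rather than to the respiratory chain, had 8 of 13 tested genes higher and 2 lower (11 and 1 with library size alone). Among all genes tested 29% were higher and 25.4% lower, and with library size alone 8572 of 15184 were higher and 1540 lower. The median of the peroxisomal list was 0.43 on the log2 scale (0.05 over all genes). The peroxisomal acyl-CoA carrier gene ABCD3 was at 11.6 ± 1.60 CPM in Rho0 cells and 6.90 ± 0.811 CPM in parental cells (1.68-fold higher; edgeR adjusted p = 5.4e-04), and the bifunctional enzyme gene EHHADH was 1.62-fold higher. ACOX2, the branched-chain oxidase, was 2.04-fold lower, at 4.01 ± 0.807 CPM in Rho0 cells and 8.22 ± 0.863 CPM in parental cells. The difference between the peroxisomal and the mitochondrial genes was not tested.

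Of 9 tested genes that control the pathway, 3 were higher and 2 lower. With library size alone 6 were higher and 0 lower. The number lower was 1 with the robust fit and without Rho0 replicate 2 or 3 or parental replicate 1 or 2. MLYCD, which degrades the CPT1 inhibitor malonyl-CoA, was at 6.15 ± 0.945 CPM in Rho0 cells and 1.67 ± 0.275 CPM in parental cells (3.69-fold higher; edgeR adjusted p = 4.8e-06). ACACB, the mitochondrial-surface carboxylase that makes malonyl-CoA, was also higher, at 15.96 ± 1.26 CPM in Rho0 cells and 4.68 ± 0.464 CPM in parental cells (3.41-fold; edgeR adjusted p = 2.6e-07). The cytosolic carboxylase ACACA, at 28.8 ± 8.47 CPM in Rho0 cells and 45.7 ± 14.3 CPM in parental cells, was 1.59-fold lower (edgeR adjusted p = 0.039), with overlapping groups and a call that held in 11 of 19 alternatives.

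The PPAR target list had 1 of 2 tested genes higher, ANGPTL4, an inhibitor of lipoprotein lipase (44.9 ± 5.32 CPM in Rho0 cells, 30.0 ± 2.10 CPM in parental cells), and its other 4 genes were too low to test. Among 7 tested genes of ketone body metabolism and acyl-CoA hydrolysis, 0 were higher and 3 lower, against 3 higher and 1 lower with library size alone. The 3 lower with TMM were the thioesterase genes ACOT9 (1.75-fold), ACOT7 (1.47-fold) and ACOT2 (1.35-fold). ACOT7 and ACOT2 were not called with library size alone (log2 fold changes -0.16 and -0.04).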

How the data were processed

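Bulk RNA-seq of 8 libraries was read from 2 deposited tables. The kit was strand-specific, enriched poly-A RNA and took in 2 ng, per the labels' protocols. One table holds estimated counts, not normalized by the authors, for 38010 Ensembl gene IDs. The other, deposited on a log2 scale after scaling by the authors, holds 12885 genes and served as an alternative. Kallisto, edgeR, limma and GRCh38 are named in the submitters' processing notes; versions, roles and annotation release are not given in the sources used here.

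Estimated counts were rounded, filtered by filterByExpr (minimum count 10), scaled by TMM and tested between lines by quasi-likelihood in edgeR 4.0.16 under R 4.3.3, adjusted by Benjamini and Hochberg over 15184 genes and called at 0.05. The code was checked on simulated counts. An SE is the log2 fold change divided by the square root of F. Libraries held 11721708 to 37203507 counts, so 1 count was worth 0.0225 to 0.0753 CPM after TMM. P-values measure the spread between cultures of 1 line each. The alternatives were DESeq2 1.42.0 size factors and Wald test, library size alone, totals without mitochondrial genes, 2 other filters, limma-voom and limma-trend (limma 3.58.1), a robust fit, a replicate block, a length and GC correction (known for 93.7% of genes tested) and leaving out each library. Of the IDs, 34284 could be named from a gene name table or GENCODE 29. The members and lists were chosen with earlier results of these data known. Named genes are the 10 members, up to 3 called genes per list with at least 5 CPM in the higher line, and the 3 genes most like the member with the smallest adjusted p.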

Additional observations from a re-analysis of the deposited data

Results flagged for a closer look

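Among 28 groups of 4 values examined (each of the 10 genes, the total count, the mitochondrial share, the summed level and the HADHA to HADHB ratio, in each line), 1 held a library far from the others, and chance gives about 1 in 20. The share of mitochondrially encoded mRNA was 0.149% in Rho0 replicate 2, against at most 0.00757% in the other Rho0 libraries. Without that library the log2 fold changes were 0.27 for CPT1A, -0.85 for CPT2, -0.73 for ECHS1 and -1.05 for HADH, all still called (edgeR adjusted p = 0.027, 1.6e-04, 0.0014 and 4.7e-05).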

How the results depend on the processing

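CPT1A, CPT2, HADH and ECHS1 kept their direction and their call in all 19 alternatives, and 1 member higher and 3 lower were called without each library in turn. With library size alone, 4 members were called higher, and 8572 genes were higher and 1540 lower, against 4399 and 3858 with TMM (84.8% and 53.3% of calls higher). The log2 fold changes then turned positive for ACADM (0.39), ACADVL (0.31), ACADS (0.28), HADHA (0.38), HADHB (0.29) and ETFDH (0.13). With the length and GC correction 5 members were lower, as were 4601 of all 15184 genes tested (4616 were higher), and ACADVL turned to 0.060. ACADM and HADHA were at 0.0125 and 0.0061 with no filter and at 0.026 and 0.018 with 50 counts in 4 libraries. Leaving out each library gave ranges of -0.11 to 0.075 for ACADM, -0.19 to 0.0063 for ACADVL and -0.096 to 0.054 for HADHA, and 3774 to 4590 genes higher and 3415 to 4391 lower. The cause was not tested. Deviations of same-numbered libraries correlated at -0.135, 0.037, 0.002 and 0.155. Those of differently numbered libraries across the lines ran from -0.247 to 0.195. The labels state no pairing, and these values cannot show whether same-numbered cultures were handled together. The replicate block gave 1 member higher and 3 lower, and 4215 genes higher and 3802 lower. ETFDH, ACADS and HADH rested on as few as 58, 68 and 73 counts in a library.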
